A study of Mus musculus with 4 samples.

Results

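The complement genes of mouse pancreatic tumors were described here from single-cell RNA counts. The 31 genes form a fixed list of complement components, receptors and regulators, taken by symbol, and all 31 were found among the 27998 gene rows of the deposited tables. They hold 8 genes of the classical pathway, 2 of the lectin pathway, 3 of the alternative pathway, 5 for C3 and the terminal pathway, 5 receptors and 8 regulators. Of these, 29 had at least 20 unique molecular identifiers (UMIs, each standing for 1 captured RNA molecule) over all 4 libraries. Hc, the mouse gene for C5, had 13 UMIs and Masp1, a lectin-pathway protease, had 7, and neither is described further.

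Complement is a cascade of blood and tissue proteins that tags cells and debris, draws in leukocytes and can open pores in membranes. C1q, built from the C1qa, C1qb and C1qc chains, binds its target and activates the proteases C1r and C1s, which cleave C4 and C2. The resulting convertase cleaves C3, and the alternative pathway of factor B, factor D and properdin amplifies that step. The small fragments C3a and C5a act on receptors of myeloid cells, and host cells limit the cascade with inhibitors such as the C1 inhibitor, CD55 and CD59. The liver makes most of the complement in blood, but macrophages and fibroblasts are long known to make some components locally.

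Cells came from pancreatic tumors of KPC mice on a C57BL/6J background, which carry Trp53LSL-R172H/+ and Pdx1-Cre among their alleles. Cre under the pancreatic Pdx1 promoter switches on the mutant alleles in cells of the pancreatic lineage. The labels give no age or treatment, and no tumor-free pancreas was analysed here. From each of 2 tumors, 1 library was made of cells sorted as DAPI-CD45-CD31-EpCAM-PDPN+ and named CAFs (cancer-associated fibroblasts; sorted CAF 1 and 2). A second library was made of all DAPI-negative cells of that tumor (all live 1 and 2). The listed stain names no EpCAM antibody. Every group thus carries the KPC alleles, and a group has 2 libraries, 1 per tumor. The design text also speaks of technical replicates, which the 4 sets of tables do not separate.

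4 promoters are shown as examples, chosen with the levels known: those of 2 C1q chains, which were higher in macrophage-like cells, and of C1ra and C3, which were higher in fibroblast-like cells. Each run is the RefSeq table's sequence from 250 bases before to 50 bases after a start (build GRCm38.p6), written 5′ to 3′ on the gene's own strand. For C1qc that start lies inside the gene's annotated span (136889801 to 136892936) and not at its edge. C1qb (chr4:136886151-136886450, minus strand) and C1qc (chr4:136892865-136893164, minus strand) lie in an 18.719 kb stretch that also holds C1qa. Capitals in these 2 runs mark GAGGAA or its reverse complement.
C1qb: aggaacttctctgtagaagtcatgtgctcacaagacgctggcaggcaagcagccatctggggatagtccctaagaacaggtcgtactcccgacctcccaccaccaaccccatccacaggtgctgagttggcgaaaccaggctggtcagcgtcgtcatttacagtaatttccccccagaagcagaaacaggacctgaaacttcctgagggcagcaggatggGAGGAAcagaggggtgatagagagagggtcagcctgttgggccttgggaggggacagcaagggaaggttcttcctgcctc
C1qc: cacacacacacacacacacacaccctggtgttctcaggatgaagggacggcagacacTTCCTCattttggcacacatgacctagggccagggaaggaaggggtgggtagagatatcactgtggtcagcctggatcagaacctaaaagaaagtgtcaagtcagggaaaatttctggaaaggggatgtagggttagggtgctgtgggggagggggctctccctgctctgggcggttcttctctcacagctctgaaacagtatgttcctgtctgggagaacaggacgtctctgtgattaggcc
In C1ra (chr6:124512371-124512670, plus strand), which sits with C1rl and C1s1 within 49.28 kb, capitals mark TTCNNNGAA. In C3 (chr17:57228087-57228386, minus strand), capitals mark 3 places that match TTNCNNAA.
C1ra: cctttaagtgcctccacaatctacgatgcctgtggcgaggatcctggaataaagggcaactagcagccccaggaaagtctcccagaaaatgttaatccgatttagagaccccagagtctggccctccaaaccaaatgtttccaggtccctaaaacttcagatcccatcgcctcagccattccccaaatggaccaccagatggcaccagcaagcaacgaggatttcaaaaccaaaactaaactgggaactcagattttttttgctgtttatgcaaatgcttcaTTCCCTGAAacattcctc
C3: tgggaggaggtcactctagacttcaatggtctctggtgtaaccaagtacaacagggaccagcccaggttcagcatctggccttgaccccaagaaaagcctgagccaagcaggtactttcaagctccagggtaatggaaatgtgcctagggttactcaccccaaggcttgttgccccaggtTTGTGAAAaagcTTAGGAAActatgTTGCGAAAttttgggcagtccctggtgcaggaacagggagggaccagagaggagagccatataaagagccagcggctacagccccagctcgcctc
Both strands were searched in the promoters of the 21 listed genes that the RefSeq table held. GAGGAA was in 6 of the 21 and in 28.3% of all 32851 promoters of that length that were searched. The 6 were C1qb, C1qc, C1ra, C5ar2, Cd59a and Cfp, and the C1ra run shown holds 1 such place, not in capitals. TTCNNNGAA was in 3 of 21 (C1ra, C7 and Vtn) and in 8.30% of all promoters. TTNCNNAA was in 11 of 21 and in 40.7% of all promoters. TATAAA was in 5 of 21 and in 13.6% of all promoters. A loose form of the NF-kB motif was in 7 of 21, with C1qb, C1qc and C3 among them, and in 20.7% of all promoters. One of the C3 places reads TTNCNNAA on both strands. No capital stretch overlapped a match of another of these motifs. These are matches of letters in a window and say nothing of which factor binds.

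The 4 libraries held 1340 to 3583 cell barcodes and 14972652 to 30950993 UMIs. After filtering, 7827 cells were kept and grouped into classes by genes that were not on the complement list. Classes are called macrophage-like and so on from marker genes, because no annotation of the cells was used. Any pair of libraries shared 4 to 6 barcodes. Sorted CAF 1 went against its label: 1056 of its 1386 cells were ductal epithelial-like and 182 fibroblast-like. Sorted CAF 2 held 896 fibroblast-like cells of 1209, with 128 ductal epithelial-like and 24 macrophage-like. The clusters that held most epithelial-like cells of tumor 1 met the keratin markers but not Epcam, Cldn3, Cldn4 or Cldn7.

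Levels below are counts per 1000000 UMIs (CPM), from UMIs summed over the cells of a class in 1 tumor, both libraries together unless a library is named. Intervals are exact Poisson 95% intervals and cover counting error only. Tests used these sums as samples (at least 20 cells each), with edgeR's quasi-likelihood test and Benjamini-Hochberg adjustment over all genes tested. A call is an adjusted p of at most 0.05. The error behind a p-value was estimated from all sums of a fit and moderated over genes. It is not the spread of 1 gene between the 2 tumors alone, and 2 tumors say little of others.

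**Figure D1:**
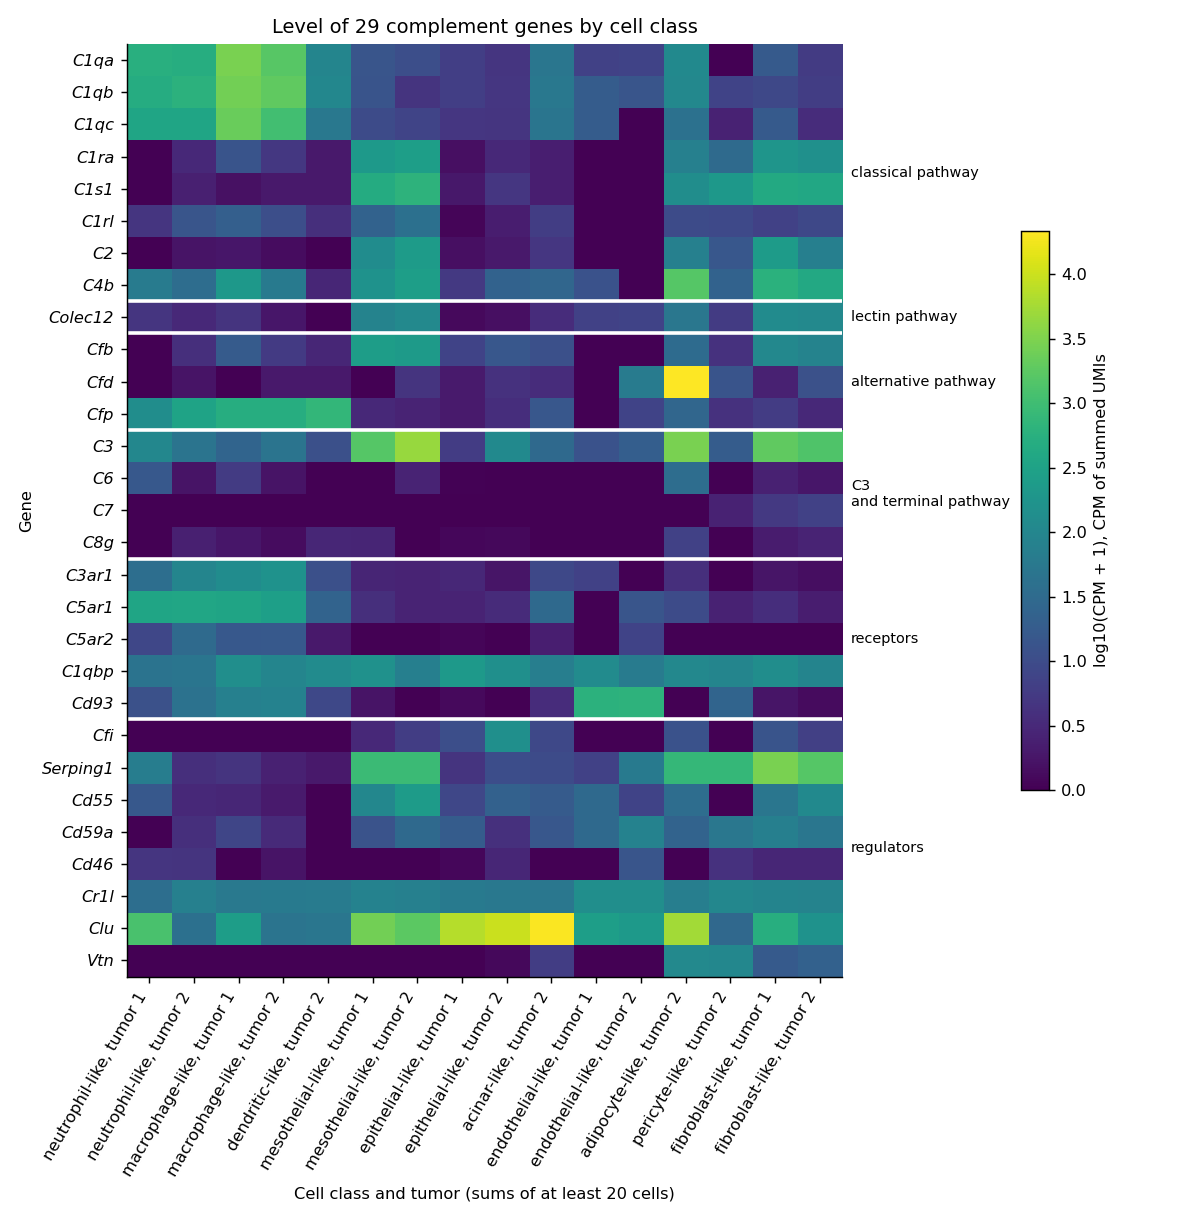
Level of the 29 complement genes with at least 20 UMIs (rows, by role) in cell classes of each tumor with at least 20 cells (columns); colour is log10(CPM + 1) of summed UMIs. The C1q chains, Cfp and the C3a and C5a receptors are bright in the macrophage-like and neutrophil-like columns, while C1ra, C1s1, C2, C3, C4b and Serping1 are bright in the fibroblast-like and mesothelial-like columns and Clu in the epithelial-like and acinar-like columns.

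The parts of C1 were highest in different classes. The 3 chains of C1q, the recognition part, were highest in macrophage-like cells, and C1ra and C1s1, the proteases that C1q activates, in fibroblast-like and mesothelial-like cells. C1qa reached 2872 CPM in macrophage-like cells of tumor 1 and 1616 CPM in those of tumor 2, against 16.2 and 4.69 CPM in fibroblast-like cells. C1qb reached 2645 and 1879.6 CPM in macrophage-like cells, against 7.69 and 5.04 CPM in fibroblast-like cells. C1qc reached 2219 and 1057 CPM in macrophage-like cells, against 15.8 and 2.56 CPM in fibroblast-like cells. The classes did not overlap for any chain, but each had only 2 sums, and the share of all genes without overlap was not counted. Nearly all macrophage-like cells were of the all live libraries, while the fibroblast-like sums held both fractions. In the all live libraries alone, C1qa had 2877 and 1598 CPM in macrophage-like cells, against 29.4 and 24.8 CPM in fibroblast-like cells. C1qb had 2650 and 1872 CPM, against 15.1 and 38.6 CPM, and C1qc 2223 and 1045 CPM, against 29.4 and 17.9 CPM. The folds below use the pooled sums.

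C1s1, the mouse gene for C1s, ran the other way. It had 0.538 and 0.955 CPM in macrophage-like cells of tumors 1 and 2, against 435 and 392 CPM in fibroblast-like cells. C1ra, the mouse gene for C1r, had 12.4 and 4.09 CPM in macrophage-like cells, against 182 and 151 CPM in fibroblast-like cells. C2, whose product is cut by C1s, had 0.807 and 0.409 CPM in macrophage-like cells, against 241 and 73.2 CPM in fibroblast-like cells. Only C1rl, a C1r-like protease gene next to C1ra, had a higher level in macrophage-like cells (19.6 and 10.1 CPM, against 5.77 and 7.77 CPM in fibroblast-like cells), and its adjusted p was 0.28.

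The log2 folds were 7.95 ± 0.70 (SE) for C1qa, 8.63 ± 0.63 for C1qb and 7.73 ± 0.93 for C1qc, macrophage-like over fibroblast-like, with edgeR adjusted p-values of 8.8e-05, 7.1e-05 and 0.00024. They were -8.86 ± 0.76 for C1s1 (adjusted p = 0.00011), -4.25 ± 0.68 for C1ra (0.0014) and -7.90 ± 0.80 for C2 (0.00015). In this comparison 8 of the 27 listed genes tested were higher, where 9.26% of all 12394 genes tested were, and 11 were lower, where 15% of all genes were. The median log2 fold of the 27 was -1.81, and that of all genes was -0.13. Macrophage-like cells of tumor 1 were mostly of 1 cluster, led by Chil3 and Mmp12, and those of tumor 2 mostly of 2 others, led by Ms4a7 and by Gm9733 with Ly6c2 among its markers.

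**Figure D2:**
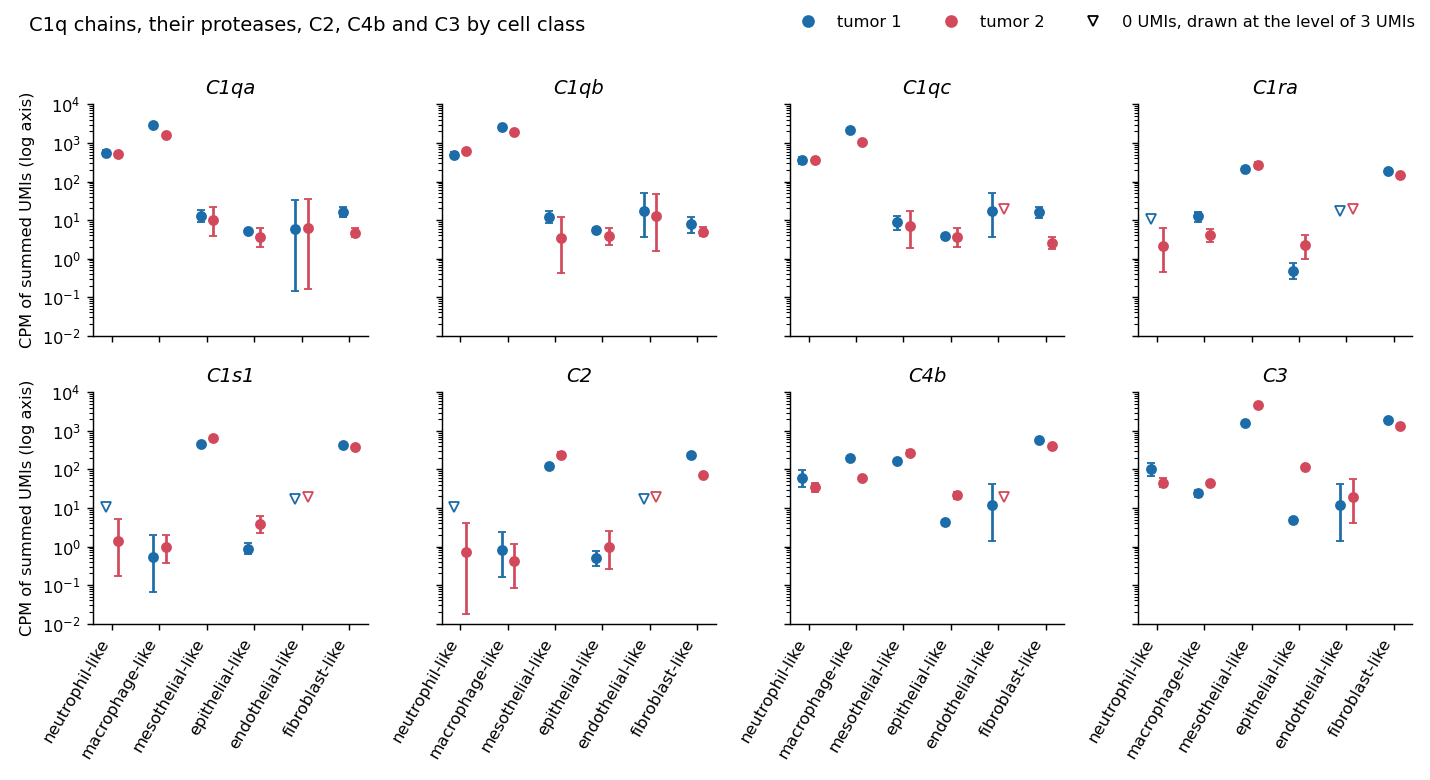
CPM of summed UMIs (log axis) of 8 genes in 6 cell classes, 1 point per tumor with exact Poisson 95% intervals; open triangles mark sums with 0 UMIs, drawn at the level of 3 UMIs. The C1q chains are highest in the macrophage-like columns, and C1ra, C1s1 and C2 are highest in the mesothelial-like and fibroblast-like columns.

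C3, on which all routes of the cascade converge, was highest in adipocyte-like, mesothelial-like and fibroblast-like cells. It had 24.5 and 45.0 CPM in macrophage-like cells, against 1869 and 1374 CPM in fibroblast-like cells (log2 fold -5.41 ± 1.18, edgeR adjusted p = 0.0061). Without the macrophage-like sum of tumor 1 the adjusted p for C3 was 0.059. C4b, the mouse gene for C4, had 201 and 59.0 CPM in macrophage-like cells, against 580 and 410 CPM in fibroblast-like cells, and was not called (log2 fold -1.81 ± 0.75, adjusted p = 0.11). C4b is nearly identical to C4a, C1ra to C1rb and C1s1 to C1s2, so how reads that match both copies were counted can change these levels. C1rb had 27 UMIs in all libraries.

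The share of cells with at least 1 UMI showed how widely these genes were seen. C3 was seen in 86.8% of fibroblast-like cells of sorted CAF 1 (95% Clopper-Pearson interval 81.0% to 91.4%) and in 93.1% of those of sorted CAF 2. The all live libraries gave 85.7% and 87.1%. C1s1 was seen in 83.5% and 89.7% of fibroblast-like cells of the sorted CAF libraries, and in 87.8% and 72.4% of those of the all live libraries. Thinned to 1500 UMIs a cell, the C1s1 shares were 50% and 46.0% in the sorted CAF libraries and 47.6% and 34.5% in the all live libraries. The C3 shares, thinned likewise, were 69.2% and 62.2% in the sorted CAF libraries and 66.7% and 65.5% in the all live libraries. C3 was thus seen in most fibroblast-like cells at either depth. In epithelial-like cells it was seen in 8.43% and 48.4% of those of sorted CAF 1 and 2, and in 8.00% and 24.0% of those of all live 1 and 2. Thinned, these shares were 0.473% and 10.2% in the sorted CAF libraries and 0.571% and 14.6% in the all live libraries. C1qb was seen in 86.6% of macrophage-like cells of all live 1 and in 73.4% of those of all live 2.

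Properdin (Cfp), which stabilises the alternative-pathway convertase, was highest in dendritic-like, macrophage-like and neutrophil-like cells. It had 513 and 511 CPM in macrophage-like cells, against 5.0 and 2.13 CPM in fibroblast-like cells (log2 fold 7.40 ± 0.67, edgeR adjusted p = 0.0001). Dendritic-like cells of tumor 2 had 740.5 CPM. Factor B (Cfb), the partner that forms the convertase, had 16.9 and 4.36 CPM in macrophage-like cells, against 105 and 87.6 CPM in fibroblast-like cells (log2 fold -3.09 ± 0.63, adjusted p = 0.0051). Cfb and C2 are neighbours, within 25.727 kb of chromosome 17, and both were lower in macrophage-like cells.

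Factor D (Cfd), the protease that activates factor B and is known as an adipocyte product, stood apart. It had 21770.5 CPM in the 30 adipocyte-like cells of tumor 2, at most 63.9 CPM in the other classes with at least 20 cells, and 0 and 0.955 CPM in macrophage-like cells, against 1.54 and 11 CPM in fibroblast-like cells. Its macrophage-like over fibroblast-like difference had an adjusted p of 0.10, and 0.0056 with the tumor as a replicate block. Adipocyte-like cells of tumor 2 also had 2948 CPM of C3, 1581 CPM of C4b and 34.7 CPM of C6, the last being its highest class. There were 4 adipocyte-like cells in tumor 1, too few for a sum. C7, also of the terminal pathway, had 4.23 and 5.80 CPM in fibroblast-like cells and 0 UMIs in macrophage-like cells, and C8g stayed at or below 5.78 CPM in every class.

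The receptors for C3a and C5a were highest in macrophage-like and neutrophil-like cells. C3ar1 had 126 and 163 CPM in macrophage-like cells, against 0.769 and 0.427 CPM in fibroblast-like cells (log2 fold 8.15 ± 0.74, edgeR adjusted p = 0.0001). C5ar1 had 342 and 279 CPM in macrophage-like cells, against 2.69 and 1.20 CPM in fibroblast-like cells (log2 fold 7.59 ± 0.63, adjusted p = 7.5e-05). C5ar2, its neighbour within 24.954 kb of chromosome 7, had 14.8 and 15.1 CPM in macrophage-like cells, against 0 UMIs in fibroblast-like cells. With 3 UMIs over the fibroblast-like sums as the floor, C5ar2 was at least 71.7-fold higher (adjusted p = 0.0012).

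Cd93, a surface protein first studied as a C1q receptor, was highest in endothelial-like cells. It had 616 and 626 CPM in endothelial-like cells, against 0.769 and 0.341 CPM in fibroblast-like cells (log2 fold 9.90 ± 0.79, edgeR adjusted p = 0.00024). Macrophage-like cells had 75.0 and 82.4 CPM, also above fibroblast-like cells (log2 fold 7.46 ± 0.74, adjusted p = 0.00012). C1qbp, a mostly mitochondrial protein that binds C1q, was present in every class at 43.5 to 223 CPM and was not called in any of the 9 comparisons.

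**Figure D3:**
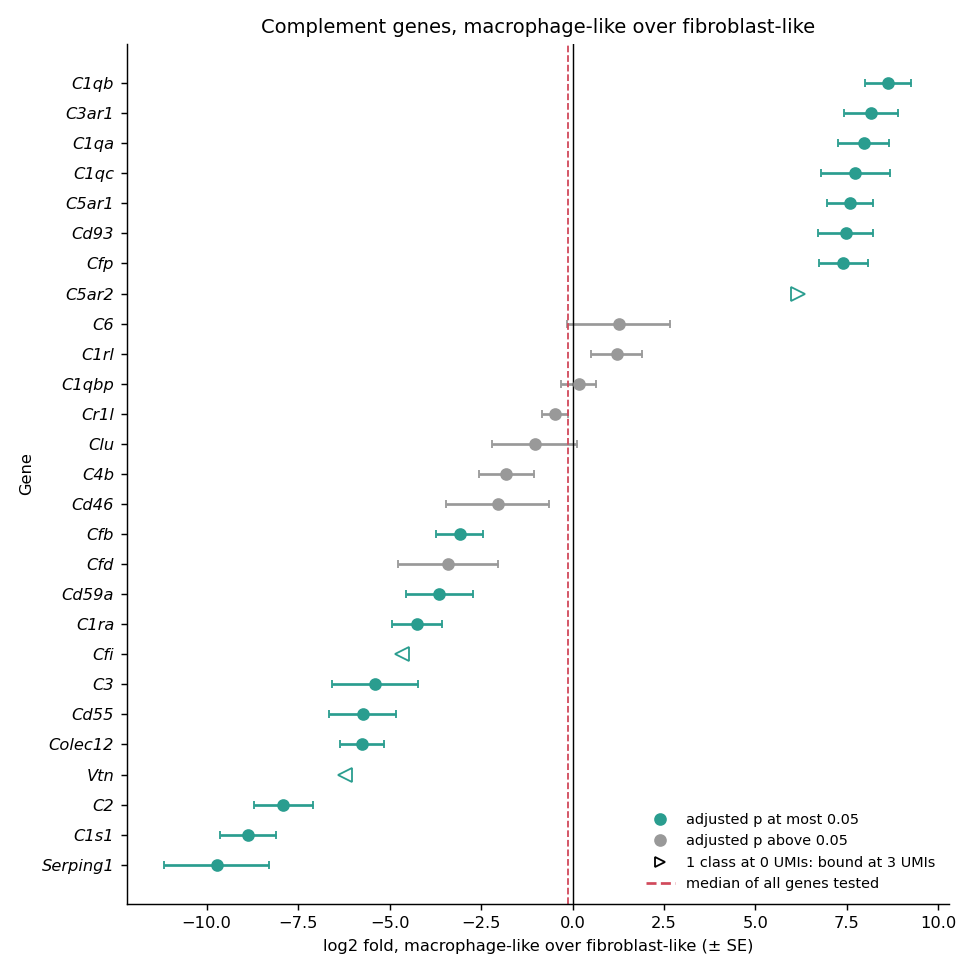
Log2 fold, macrophage-like over fibroblast-like, with its SE, of the 27 complement genes tested (sums of 2 tumors per class). Filled green points passed the test, grey ones did not, triangles mark bounds where 1 class had 0 UMIs, and the dashed line is the median of all genes tested at -0.13.

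Of the 8 regulators, 5 were called lower in macrophage-like than in fibroblast-like cells, where 15% of all 12394 genes were. None was called higher, where 9.26% of all genes were. Serping1, the C1 inhibitor, which inactivates C1r and C1s, had 3.50 and 1.5 CPM in macrophage-like cells, against 2937 and 1545 CPM in fibroblast-like cells (log2 fold -9.72 ± 1.44, edgeR adjusted p = 0.0007). Cd55, which breaks up convertases, had 1.88 and 1.09 CPM in macrophage-like cells, against 50.4 and 114 CPM in fibroblast-like cells (log2 fold -5.73 ± 0.91, adjusted p = 0.001). Cd59a, which blocks the membrane pore, had 6.99 and 2.32 CPM in macrophage-like cells, against 73.1 and 49.8 CPM in fibroblast-like cells (log2 fold -3.64 ± 0.90, adjusted p = 0.012). Without the macrophage-like sum of tumor 2 its adjusted p was 0.13.

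Vitronectin (Vtn), which binds the forming pore, and factor I (Cfi), which cleaves C3b, had 0 UMIs in macrophage-like cells. Vtn was at least 74.6-fold lower there than in fibroblast-like cells (adjusted p = 0.0026), and Cfi at least 25.5-fold lower (adjusted p = 0.021). Under DESeq2 the adjusted p was 0.087 for Vtn and 0.32 for Cfi. Cfi was also lost without fibroblast-like replicate 1 (0.06), without either macrophage-like sum (0.063 and 0.12) and with the all live libraries only (0.08). Vtn was highest in adipocyte-like and pericyte-like cells of tumor 2, at 110 and 99.5 CPM. Colec12, a collectin scavenger receptor of the lectin pathway, had 3.50 and 0.818 CPM in macrophage-like cells, against 123 and 111 CPM in fibroblast-like cells (log2 fold -5.75 ± 0.60, adjusted p = 0.00013). Cr1l, the rodent convertase inhibitor Crry, had 55.1 and 61.4 CPM in macrophage-like cells, against 89.2 and 87.4 CPM in fibroblast-like cells (adjusted p = 0.40), and 36.2 to 141 CPM over all classes. Cd46, which in mice is known mainly from the testis, stayed at or below 12.8 CPM in every class.

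Of 22 further complement genes listed, 20 had 1 row in the tables and 8 could be tested between classes. Macrophage-like cells had higher Fcna, a lectin-pathway ficolin, at 154 and 49.0 CPM, against 0.385 and 0.598 CPM in fibroblast-like cells (log2 fold 7.56 ± 0.85, edgeR adjusted p = 0.00023). Itgax and Itgb2, whose proteins pair as complement receptor 4, were also higher, with log2 folds of 6.69 ± 0.93 and 7.86 ± 0.58. None of the 8 was lower in macrophage-like cells. In epithelial-like cells Cpn1, a subunit of the carboxypeptidase that trims C3a and C5a, was higher, at 9.17 and 9.02 CPM against 0.769 and 0.256 CPM in fibroblast-like cells (log2 fold 4.42 ± 1.26, adjusted p = 0.032). None of the 8 was called in the comparisons of mesothelial-like, endothelial-like and neutrophil-like cells.

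Mesothelial-like cells, from the lining of the abdominal organs, also held C1s1, C3, Cfb and Serping1, with levels that were higher than in fibroblast-like cells for some listed genes and lower for others. Vtn, C7 and Cd46 had 0 UMIs in them. C1s1 had 470 and 645 CPM in mesothelial-like cells, against 435 and 392 CPM in fibroblast-like cells. C3 had 1577 and 4680.5 CPM, against 1869 and 1374 CPM. Cfb had 262 and 228 CPM, against 105 and 87.6 CPM, a log2 fold of 1.24 ± 0.58 (edgeR adjusted p = 0.54). Clu had 2610 and 1740.1 CPM, against 520 and 163 CPM, a log2 fold of 2.60 ± 1.22 (adjusted p = 0.54). C1rl had 22.4 and 39.2 CPM, against 5.77 and 7.77 CPM, with a log2 fold of 1.99 ± 0.74 (adjusted p = 0.33), and was above the fibroblast-like level in both tumors. Serping1 had 908 and 914 CPM, against 2937 and 1545 CPM, a log2 fold of -1.39 ± 0.99 (adjusted p = 0.88).

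No listed gene of 27 was called between mesothelial-like and fibroblast-like cells, where 1.19% of all genes were. The unadjusted p was under 0.05 for 2 of the 27 and for 1221 of all genes, and DESeq2 called none of the list, where 0.422% of 20136 genes were higher and 0.497% lower. Vtn had 0 UMIs in mesothelial-like cells, against 16.2 and 21.2 CPM in fibroblast-like cells, at least 22.7-fold lower. Its adjusted p was 0.067, and 0.033 with the replicate block, where 1 of 27 was called lower against 1.77% of all genes. The median log2 fold of the 27 was 0, or 0.05 with genes at their bounds, and that of all genes -0.07. Mesothelial-like cells had 13911 to 16509 CPM over the 11 fibroblast markers in the libraries with at least 20 such cells, against 25340.3 to 37659 CPM in fibroblast-like cells of the 4 libraries.

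Clusterin was higher in epithelial-like than in fibroblast-like cells. Clu, a secreted chaperone that also blocks the terminal pathway, had 7087 and 9929 CPM in epithelial-like cells, against 520 and 163 CPM in fibroblast-like cells (log2 fold 4.67 ± 1.34, edgeR adjusted p = 0.03). It was higher in 2 of 2 tumors. The call ended without epithelial-like replicate 1 (adjusted p = 0.058), without either fibroblast-like sum (0.09 and 0.21) and with the all live libraries only (0.065). Acinar-like cells of tumor 2, the enzyme-secreting pancreatic cells, had more, at 20514 CPM. Clu was seen in 99.4% to 100% of epithelial-like cells of the 4 libraries.

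Of 27 genes tested, 11 were lower than in fibroblast-like cells, where 12.5% of all genes were, and Clu alone was higher, where 7.68% were. The 11 were C1ra, C1s1, C1rl, C2, C3, C4b, Cfb, Serping1, Cd55, Vtn and Colec12. C1s1 had 0.884 and 3.90 CPM, against 435 and 392 CPM (log2 fold -7.68 ± 0.70, edgeR adjusted p = 0.00031). C3 had 4.79 and 114 CPM, against 1869 and 1374 CPM (log2 fold -4.88 ± 1.15, adjusted p = 0.012). Cd55 had 7.28 and 21.0 CPM, against 50.4 and 114 CPM (log2 fold -2.64 ± 0.75, adjusted p = 0.028). The Cd55 and C1rl calls ended without epithelial-like replicate 1 (0.16 and 0.079) and without fibroblast-like replicate 2 (0.24 and 0.084). Cd55 was also lost with the all live libraries only (0.13), and Vtn, with 1 UMI in epithelial-like cells, was lost with DESeq2 (0.16). With the replicate block, C6 (adjusted p = 0.036) and Cd59a (0.029) were lower as well. Over the 27 the median log2 fold was -1.88, against 0.01 over all genes.

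The epithelial-like class differed within itself. In tumor 2, 34 cells of a cluster led by Wfdc18, Mmp7 and Krt17 had 939 CPM of C3, and the larger cluster led by Agr2 had 49.6 CPM. That Agr2-led cluster had 183 CPM of Cfi in tumor 2 and 30.6 CPM in tumor 1, while the clusters led by Cdc20 and Adh7 in tumor 1 had 4.0 and 9.79 CPM. Over the whole class Cfi had 10.1 and 144 CPM in epithelial-like cells, against 12.3 and 5.72 CPM in fibroblast-like cells, so the tumors disagreed in direction (log2 fold 3.05 ± 1.06, edgeR adjusted p = 0.081). Different clusters made up the class in the tumors, and whether these values follow the cluster or the tumor cannot be told apart.

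Endothelial-like cells, 21 in tumor 1 and 32 in tumor 2, had 328451 UMIs in all and were low in most components. C1ra, C1s1, C2 and Cfb had 0 UMIs there. At the floor of 3 UMIs they were at least 17.2-fold, 43.8-fold, 11.3-fold and 9.94-fold lower than in fibroblast-like cells. Serping1 had 5.82 and 57.5 CPM, against 2937 and 1545 CPM (log2 fold -6.58 ± 1.32, edgeR adjusted p = 0.015). C3 had 11.6 and 19.2 CPM, against 1869 and 1374 CPM (log2 fold -7.14 ± 1.41, adjusted p = 0.014). C4b and Colec12, with 2 UMIs each, were also called lower.

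Of 27 genes tested, 8 were lower in endothelial-like cells, where 3.13% of all genes were, and Cd93 alone was higher, where 2.7% were. Cr1l, which protects host cells from convertases, had 140 and 141 CPM in endothelial-like cells, against 89.2 and 87.4 CPM in fibroblast-like cells (adjusted p = 0.84). Cd59a had 29.1 and 83.1 CPM, against 73.1 and 49.8 CPM (adjusted p = 0.85). The calls rest on both endothelial-like sums: without either, 2 calls were left, Cd93 and C1s1. Of all genes, 1.21% were then higher and 0.36% lower without the sum of tumor 1, and 1.36% and 0.393% without that of tumor 2. The median log2 fold of the 27 was -1.10, or -0.62 with genes at their bounds, and that of all genes -0.32.

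Neutrophil-like cells also had UMIs of the C5a receptor and, in a smaller share of cells, of C1q. C5ar1 had 348 and 368 CPM in neutrophil-like cells, against 342 and 279 CPM in macrophage-like cells (log2 fold 0.38 ± 0.46, edgeR adjusted p = 0.96). It was seen in 91.9% and 57.0% of neutrophil-like cells of all live 1 and 2, against 77.3% and 56.7% of macrophage-like cells. C1qa had 551 and 503 CPM in neutrophil-like cells, against 2872 and 1616 CPM in macrophage-like cells (log2 fold -1.91 ± 0.53, adjusted p = 0.34). C1qb was seen in 24.3% and 29.8% of neutrophil-like cells of all live 1 and 2, against 86.6% and 73.4% of macrophage-like cells. Cfp had 134 and 324 CPM, against 513 and 511 CPM (log2 fold -1.02 ± 0.51, adjusted p = 0.74).

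No listed gene of 27 was called between neutrophil-like and macrophage-like cells, where 0.121% of all genes were. The unadjusted p was under 0.05 for 7 of the 27 and for 880 of all genes. DESeq2 called 1 listed gene of 31 higher, where 0.447% of 20136 genes were, and 1 lower, where 0.0646% were. With the replicate block C1qa and C1qb were called lower (log2 folds -1.85 and -1.83, adjusted p = 0.044 and 0.045), where 0.0807% of all genes were. The median log2 fold of the 27 was 0, or 0.08 with genes at their bounds, and that of all genes -0.11.

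Clu had 1213 and 38.6 CPM in neutrophil-like cells, against 257 and 46.0 CPM in macrophage-like cells (log2 fold 2.35 ± 1.21, edgeR adjusted p = 0.76). The 11 fibroblast markers summed to 1097 and 46.0 CPM in neutrophil-like cells of all live 1 and 2, against 83.3 and 53.8 CPM in macrophage-like cells, and their part in the Clu level was not tested.

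The C1q of neutrophil-like cells was uneven between clusters. In all live 2, the cluster led by Csf3r and Cxcr2 had 862 CPM of C1qa and 1041 CPM of C1qb. The cluster led by Gm5483, Car4 and G0s2 in the same library had 33.6 and 28.3 CPM. In all live 1, the cluster led by Camp and Ngp had 108 and 93.6 CPM. The first of these met 8 of the 12 macrophage markers and the other two met 2 each. Over the whole class those 12 markers summed to 12123 and 12273 CPM in neutrophil-like cells of all live 1 and 2, against 24014 and 21366 CPM in macrophage-like cells, and none was at 0. C5ar1 was 320 CPM, 417 CPM and 310 CPM in the same 3 clusters. The part of these markers in the C1q level was not tested.

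Among macrophage-like clusters C1qa varied by cluster and library. In all live 2 it had 1899 CPM in the cluster led by Ms4a7 and Pf4, 1445 CPM in the one led by Chil3 and 1007 CPM in the one with Ly6c2. In all live 1 the same clusters had 4821, 2645 and 4711 CPM. Every one of these was higher in all live 1, whose cells also had a median of 6743 UMIs, against 3377 in all live 2. Cfp ranged more narrowly, from 459 to 663 CPM over the 8 cluster and library sums with at least 20 cells.

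The fibroblast-like cells were split into 8 subclusters, again without the complement genes. Subclusters 4 and 6 met inflammatory fibroblast markers, and 1, 2 and 3 met myofibroblast markers, the contractile, matrix-laying state near tumor cells. The inflammatory-like sums held 39 and 314 cells in tumors 1 and 2, and the myofibroblast-like sums 248 and 308. Another 12 and 319 cells were in subclusters without a name, which count in the fibroblast-like sums but in neither state. In tumor 1 most myofibroblast-like cells were of subcluster 1, which met 3 of the 15 markers, and in tumor 2 of subclusters 2 and 3.

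Of the membrane regulators, Cd55 was higher in inflammatory-like cells and Cd59a was lower. Cd55 had 158 and 333 CPM in inflammatory-like cells, against 40.9 and 12.5 CPM in myofibroblast-like cells (log2 fold 3.39 ± 0.61, edgeR adjusted p = 0.045). Cd59a had 10.8 CPM (3 UMIs) and 12.5 CPM in inflammatory-like cells, against 93.8 and 76.5 CPM in myofibroblast-like cells (log2 fold -2.69 ± 0.41, adjusted p = 0.031). The states did not overlap for either gene, but each had only 2 sums, and the share of all genes without overlap was not counted. Of 20 listed genes tested, 1 was higher in inflammatory-like cells, where 0.331% of all 10257 genes were, and 1 lower, where 0.38% were. With the replicate block 3 were higher, where 2.67% of all genes were, and 2 were lower, where 2.8% were. The added genes were C4b (adjusted p = 0.023), C7 (0.014) and Cfd (0.043). The median log2 fold of the 20 was 0.22, and that of all genes 0.00.

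Both calls depend on a few settings. Without inflammatory-like replicate 1 the adjusted p was 0.12 for Cd55 and 0.13 for Cd59a, and without replicate 2 it was 0.35 and 0.3. At a finer cluster resolution it was 0.13 and 0.082, with doublets kept it was 0.056 for Cd55, and without subcluster 1 it was 0.076 for Cd59a. Without myofibroblast-like replicate 1, 4 of 21 listed genes were higher in inflammatory-like cells, where 2.49% of all genes were, and 2 were lower, where 2.36% were. The directions held throughout, with log2 folds from 2.63 to 4.42 for Cd55 and from -2.96 to -2.02 for Cd59a over 11 alternatives.

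Levels of the components differed between subclusters of 1 state. C3, C4b and C1s1 were high in the inflammatory-like subcluster 4 and in the myofibroblast-like subcluster 1, and low in subcluster 2. C3 had 4029 CPM in subcluster 4 of tumor 2 and 2814 CPM in subcluster 1 of tumor 1, against 169 and 395 CPM in subcluster 2 of tumors 1 and 2. C4b had 1040.3 and 823 CPM in subclusters 4 and 1, against 89.0 and 113 CPM in subcluster 2. C1s1 had 778 and 609 CPM, against 102 and 200.4 CPM. As whole states, C3 had 2195 and 2864 CPM in inflammatory-like cells, against 2110.4 and 499 CPM in myofibroblast-like cells (log2 fold 1.07 ± 0.62, edgeR adjusted p = 0.71).

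Without subcluster 1, an alternative chosen after seeing the data, 7 of 17 listed genes tested were higher in inflammatory-like cells, where 2.34% of all genes were, and 0 were lower, where 1.91% were. Cd55 was highest in subcluster 6, at 190 and 536 CPM in tumors 1 and 2, and it was among that subcluster's leading genes although it had no part in the clustering. C7, a part of the membrane pore, was also highest there, at 25.7 and 13.9 CPM (5 and 19 UMIs). Cd59a was highest in subcluster 1 of tumor 1, at 118 CPM, and in subcluster 2 of tumor 2, at 92.4 CPM, but had 15.9 CPM in subcluster 2 of tumor 1. Colec12 had 64.6 and 66.9 CPM in inflammatory-like cells, against 137 and 153 CPM in myofibroblast-like cells (log2 fold -1.05 ± 0.35, adjusted p = 0.28). Subcluster 7, which met 3 of 7 antigen-presenting markers, had 554 and 803 CPM of C3 and 173 and 179 CPM of C4b. It was not the only group with these 7 markers. They summed to 15337, 11088 and 17643 CPM in mesothelial-like cells of all live 1, sorted CAF 1 and sorted CAF 2, whose C3 is given above. In macrophage-like cells of all live 1 and 2 they summed to 8973 and 10840 CPM.

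**Figure D4:**
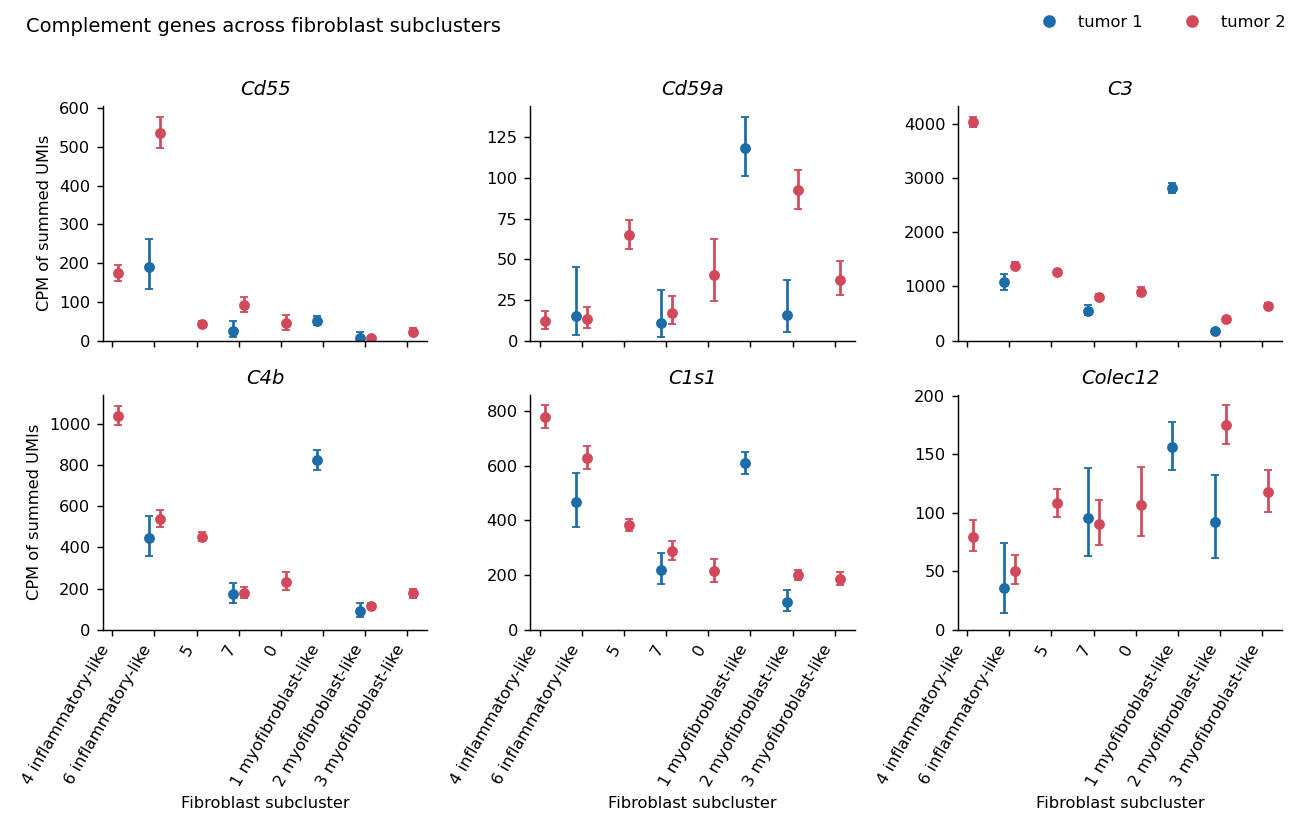
CPM of summed UMIs of 6 genes in the 8 fibroblast subclusters, 1 point per tumor with at least 20 cells and exact Poisson 95% intervals. Cd55 peaks in subcluster 6, Cd59a in subclusters 1 and 2, and C3, C4b and C1s1 in subclusters 4 and 1.

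The labels' own comparison is of the sorted CAF and the all live libraries. Summed over whole libraries, C1q and the receptors of leukocytes had lower levels in both sorted CAF libraries, and C1s1 and C3 had higher ones. C1qa had 0.39 and 25.3 CPM in sorted CAF 1 and 2, against 380.0 and 898 CPM in all live 1 and 2. C5ar1 had 0 and 3.82 CPM, against 50.7 and 190.4 CPM. C1s1 had 52.9 and 315 CPM, against 42.1 and 24.9 CPM. C3 had 212 and 1232 CPM, against 161 and 149.7 CPM. For C1s1 and C3, sorted CAF 1 was close to all live 1, and sorted CAF 2 was far above all live 2. In sums over whole libraries, fewer cells of a type and less RNA per cell cannot be told apart.

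No listed gene of 29 was called between the whole libraries, where 0% of 14118 genes were. The unadjusted p was under 0.05 for 8 of the 29 and for 562 of all genes, and DESeq2 called 7 of 31 lower in sorted CAF, where 2.3% of 20228 genes were. The log2 fold was -5.90 ± 1.99 for C1qa, 2.24 ± 0.93 for C1s1 and 1.99 ± 0.88 for C3, and each had an edgeR adjusted p of 0.9999. With the replicate block Cfp (log2 fold -6.56 ± 0.50, adjusted p = 0.042) and C5ar2 (-5.73 ± 0.62, 0.047) were called lower, where 1.33% of all genes were. Over the 29 the median log2 fold was 0.30, and that of all genes -0.02.

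Within fibroblast-like cells the levels of C1s1 and C3 differed between the fractions by less than their errors, and the C1q chains were lower in both sorted CAF libraries. C1s1 had 456 and 395 CPM in fibroblast-like cells of sorted CAF 1 and 2, against 416 and 347 CPM in those of all live 1 and 2 (log2 fold 0.15 ± 0.28). C3 had 2052 and 1369 CPM, against 1693 and 1449 CPM (log2 fold 0.11 ± 0.33). C1qa had 2.36 and 3.37 CPM, against 29.4 and 24.8 CPM (log2 fold -3.10 ± 0.43). C1qb had 0 and 2.82 CPM, against 15.1 and 38.6 CPM, and C1qc had 1.57 and 1.55 CPM, against 29.4 and 17.9 CPM.

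No listed gene of 18 was called within fibroblast-like cells, where 0% of 8859 genes were. The unadjusted p was under 0.05 for 3 of the 18 and for 68 of all genes, and DESeq2 called the 3 C1q chains lower, where 0.115% of 17370 genes were. With the replicate block C1qa, C1qb and C1qc were called lower in sorted CAF (log2 folds -3.08, -3.96 and -3.71, adjusted p = 4.6e-10, 1.2e-14 and 5.6e-11), where 0.576% of all genes were. With so few sums, these p-values rest on an error moderated over all genes, not on the spread of the sums alone. Without sorted CAF replicate 1 the calls were 3, all lower, where 0.525% of all genes were. They were 2 without all live replicate 2 (0.179% of all genes) and 1 without all live replicate 1 (0.18%). Over the 18 the median log2 fold was 0.07, and that of all genes 0.00.

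Macrophage markers in fibroblast-like cells and C1q in epithelial-like cells were also lower in both sorted CAF libraries. The 12 macrophage markers summed to 72.3 and 63.8 CPM in fibroblast-like cells of sorted CAF 1 and 2, against 179 and 411 CPM in those of all live 1 and 2. Adgre1, Fcgr1, Ms4a7 and Ccr2 were at 0 in sorted CAF 1, Ccr2 in sorted CAF 2 and Ly6c2 in all live 1. In epithelial-like cells the 3 chains together had 0.25 and 0.786 CPM in sorted CAF 1 and 2, against 27.0 and 28.3 CPM in all live 1 and 2. In fibroblast-like cells they had 3.93 and 7.73 CPM, against 73.8 and 81.4 CPM. C1qb was seen in 6.12% and 8.62% of fibroblast-like cells of all live 1 and 2 (median 7210 and 5278.5 UMIs a cell) and in 16.4% and 8.19% of epithelial-like cells (19113 and 7362). Thinned to 1500 UMIs a cell, the shares were 1.36% and 2.59% in fibroblast-like cells and 1.33% and 2.34% in epithelial-like cells. Per UMI, C1qb had 15.1 and 38.6 CPM in fibroblast-like cells of all live 1 and 2, against 10.0 and 10.3 CPM in epithelial-like cells. No expression of C1qb by fibroblast-like cells is read from these shares. The part of RNA from macrophages in these values was not tested.

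In all live 1, C1qa, C1qb and C1qc made up 37.1%, 34.2% and 28.7% of the C1q UMIs of macrophage-like cells, and 36.4%, 37.0% and 26.6% of those of epithelial-like cells. In neutrophil-like cells of that library they made up 39.5%, 34.8% and 25.7%. In all live 2 they made up 35.4%, 41.5% and 23.1% in macrophage-like cells and 34.2%, 41.5% and 24.3% in neutrophil-like cells. In epithelial-like cells of all live 2 they made up 29.5%, 36.4% and 34.1% of 44 UMIs. In fibroblast-like cells they made up 39.8%, 20.4% and 39.8% of 98 UMIs in all live 1, and 30.5%, 47.5% and 22.0% of 59 UMIs in all live 2. The 24 macrophage-like cells of sorted CAF 2 had 6408 CPM of C1q, although the gate took out CD45+ cells, and the 59 pericyte-like and 27 adipocyte-like cells of that library had 0 UMIs of C1q.

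**Figure D5:**
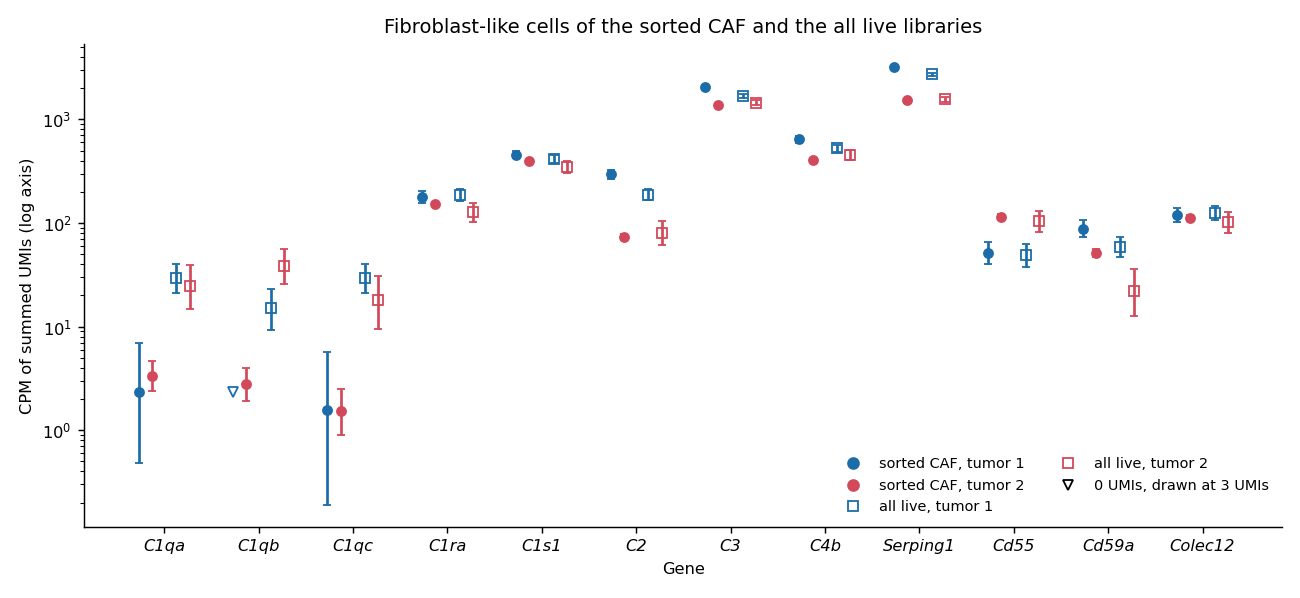
CPM of summed UMIs (log axis) of 12 genes in fibroblast-like cells of the sorted CAF libraries (filled circles) and the all live libraries (open squares), with exact Poisson 95% intervals; the open triangle marks 0 UMIs, drawn at 3 UMIs. The C1q chains sit below 5 CPM in both sorted CAF libraries and above 15 CPM in both all live libraries, and the other 9 genes lie closer together.

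The fraction difference was also compared between fibroblast-like and epithelial-like cells with an interaction of class and fraction. No listed gene of 22 was called, where 0% of 11288 genes were. The unadjusted p was under 0.05 for 1 of the 22 and for 82 of all genes, and DESeq2 called none of either. That 1 gene was C1qc (log2 difference of folds 5.01 ± 1.09), with 0 UMIs in epithelial-like cells of both sorted CAF libraries.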

How the data were processed

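Single-cell 3′ libraries (10x Genomics) of 2 KPC tumors were deposited by the authors as raw UMI counts per gene and cell barcode. Tumors were digested for 45 min at 37 °C and passed through a 100 um strainer, per the labels' protocols. The full genotype is not reported here. Base calling and counting used CASAVA 1.4 and Cell Ranger 2.0.0 with mm10, per the submitters' processing notes. How reads matching several genes were counted was not given in these sources. Counts of a 3′ kit are not scaled by gene length.

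Barcodes needed 500 genes or more and no more than 10% of UMIs from mitochondrial genes, which left 7984 of 8282. Scrublet's own threshold called 27 of them (0.338%), so the 157 highest-scoring cells were removed as doublets, at 0.8% per 1000 barcodes of a library. Cells were clustered with scanpy 1.11.5 (2000 variable genes, 30 components, Leiden resolution 1) without the complement genes. Names needed 3 or more markers, each with a 2-fold excess and a UMI in 20% or more of the cluster. A second clustering of the fibroblast-like cells used resolution 0.5. UMIs were summed per library, tumor or class and tested with edgeR 4.0.16 (TMM, filterByExpr). DESeq2 1.42.0, RLE factors, no filter, kept doublets, a finer resolution, the all live libraries alone and leaving out each sum were tried as alternatives. Fits without 1 fibroblast subcluster, not planned beforehand, were also run. The scripts were tested on simulated counts. Sums hold 2 libraries or tumors a group. Shares used Clopper-Pearson intervals at 95%, also with each cell thinned to 1500 UMIs.

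Libraries of 1 number come from 1 tumor, per the labels. Deviations from the group means correlated by 0.712 between fractions of a tumor and by 0.203 to 0.633 in the other comparisons. A fit with the tumor as a replicate block was run beside each main fit. All 31 genes are accounted for, those with at least 20 UMIs by level and those called in a comparison with statistics. The genes, marker lists and tests were chosen with earlier results of these data known.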

Additional observations from a re-analysis of the deposited data

How the results depend on the processing

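No called value changed direction under any alternative run. Of 502 alternative values for the 42 calls, 461 stayed on their side of the threshold and 41 lost the call, and 25 calls were kept under every alternative. The replicate block ended none of the calls and, beside those printed with it, changed no other call. With it the counts of called complement genes were 2 between whole libraries, 3 between fractions in fibroblast-like cells, 5 between inflammatory-like and myofibroblast-like cells, 1 in mesothelial-like cells and 2 in neutrophil-like cells, against main counts of 0, 0, 2, 0 and 0. Without a filter on low counts they were 4 in the fibroblast-like fractions, 4 between the states, 3 in mesothelial-like and 5 in neutrophil-like cells. A count without a share over all genes, in this section or above, is not read as a result about the list. DESeq2 gave 7 between whole libraries, 3 in the fibroblast-like fractions and 2 in neutrophil-like cells. Between the states, 1 was called with doublets kept, 0 at the finer resolution and 7 without subcluster 1, which was chosen after seeing the data. Leaving out 1 sum in turn gave 0 to 3 in the fibroblast-like fractions, 0 to 6 between the states, 2 to 9 in endothelial-like cells and 0 to 1 in neutrophil-like cells. Counts ranged from 17 to 22 for macrophage-like and from 9 to 17 for epithelial-like cells over all alternatives. Where a class was left with 1 sum, that sum was assumed to vary like the other groups. The cause of these moves was not tested. Depth limits the endothelial-like sums, which held 328451 UMIs in all, and thinning to 1500 UMIs left 5 of 34 shares within their counting interval.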
